A study of Mus musculus with 13 samples.

Results

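Translation initiation and elongation factors are the soluble proteins that load the ribosome onto an mRNA, find the start codon and carry the peptide chain forward. The members described here are all autosomal protein-coding mouse genes of GENCODE M21 whose symbol begins with Eif1 to Eif5 or with Eef1 or Eef2. Of the 60 annotated genes of this rule, 57 are in the deposited table of 13201 genes and 3 (Eef1a2, Eef1akmt4 and Eif4e1b) were not analysed here. Another 4 genes of the name pattern were left out by name, and 4 were left out because they are not autosomal or not protein-coding. The rule reads a gene's name, type and chromosome and no expression value, although the gene set was taken up with earlier results of these data known.

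RNA with a poly(A) tail was sequenced by Smart-seq2, a full-length cDNA method for small inputs, in 13 libraries of 100 sorted mouse bone marrow haematopoietic stem cells (HSCs) each. Their donors were wild type (WT) or lacked MEK1, the kinase made by Map2k1 that activates ERK (knockout, KO), and were either untreated or treated with 5-fluorouracil (5-FU), a drug that kills dividing blood cells. The untreated libraries were WT D1 to D3 and KO D4 to D6, 3 of each, where D1 was sequenced on 2 flowcells. After 5-FU, WT had 4 libraries named A2, A3, A4 and D4, and KO had 3, named A5, A6 and A8. The sources used here do not give the deletion method, strain, age, 5-FU dose or sampling time. They also do not tie libraries to individual mice, and p-values therefore reflect only the spread among libraries, which may be technical. Values below are normalized read counts, that is, reads divided by the library's size factor, and lists of values follow the library order just given.

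Initiation begins when eIF2 carries the initiator tRNA to the small ribosomal subunit, where eIF1, eIF1A, eIF5 and the large scaffold eIF3 keep it ready to scan. The eIF4F complex recruits the mRNA through its cap, eIF2B recharges eIF2 with GTP, and the eIF2 kinases block that recharging under stress. In elongation eEF1A delivers each aminoacyl tRNA, the eEF1B subunits recharge eEF1A, eEF2 moves the ribosome along, and eIF5A helps it past sequences that form peptide bonds slowly. HSCs are known for a low rate of protein synthesis compared with the progenitors they form, and for poor tolerance of changes in that rate.

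Read totals ran from 11416753 to 45384866 per library, and every member had at least 1 read in every library. Map2k1 itself read 905, 1116 and 1766 in untreated WT, 611, 749.8 and 545 in untreated KO, 604, 1634, 584 and 1573 in WT after 5-FU and 328, 459.9 and 304 in KO after 5-FU. The log2 difference of KO from WT was -0.96 after 5-FU (limma, adjusted p = 0.0339) and -0.69 in untreated cells (adjusted p = 0.460). WT A2 and A4 after 5-FU lay within the untreated KO range of 545 to 749.8, though above every KO library after 5-FU. The transcript was not absent from KO, and which part of the gene was deleted is not given, so the reads check the labels only in part. WT A3 and D4 after 5-FU were nearly alike, with a Pearson correlation over all genes of 0.988, against 0.934 to 0.943 for the other pairs of that group. The WT D4 library after 5-FU carries the acquisition date of the untreated libraries, while the other 6 libraries after 5-FU share a later date. It is also the only library sequenced on the second of the 2 flowcells alone. Of 9 HSC markers, 8 had reads in every library, and Fgd5 was at 0 in WT A3 and D4 after 5-FU. Procr read 1.16 to 165 in WT after 5-FU and 784 to 974 in untreated WT. In WT after 5-FU 4 of the 9 were lower than in untreated WT (Ly6a, Procr, Hlf and Fgd5) and 2 were higher (Slamf1 and Ctnnal1), by limma at an adjusted p under 0.05. No T-cell marker of the list (0 of 4) was in the table. The normalized counts of the 9 HSC markers summed to 5975 to 6459 in KO and 10382 to 13836 in WT after 5-FU, where 3 were lower in KO (Kit, Slamf1 and Ctnnal1) and 1 higher (Procr).

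The largest set of differences was between the genotypes after 5-FU. Here 13 of the 56 tested members were higher in KO and 0 were lower (limma, Benjamini-Hochberg adjusted p under 0.05 over 12846 genes), whereas 5.36% of all tested genes were higher, 5.5% were lower and 10.9% were called in either direction. The 13 were Eif2s1, Eef1d, Eif5a, Eif2s2, Eif4g2, Eif3b, Eif3m, Eif3l, Eef1g, Eif3a, Eif1ad, Eef1e1 and Eif3g, in order of p. The median log2 difference of the 56 members was 0.32, against -0.02 over all tested genes, and 42 of 56 were positive. At an unadjusted p under 0.05 there were 27 of 56 members and 3190 of 12846 genes. Values of the KO and WT libraries did not overlap for 24 of 56 members, 21 of them higher in KO, beside 27% of all genes in either direction and 13.2% higher. Averaging WT A3 and D4 into 1 library left 9 of the 13 calls, as did restricting the 5-FU libraries to the later acquisition date by leaving out WT D4; Eef1e1, Eif1ad, Eif3a and Eif3g were lost both times.

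**Figure D1:**
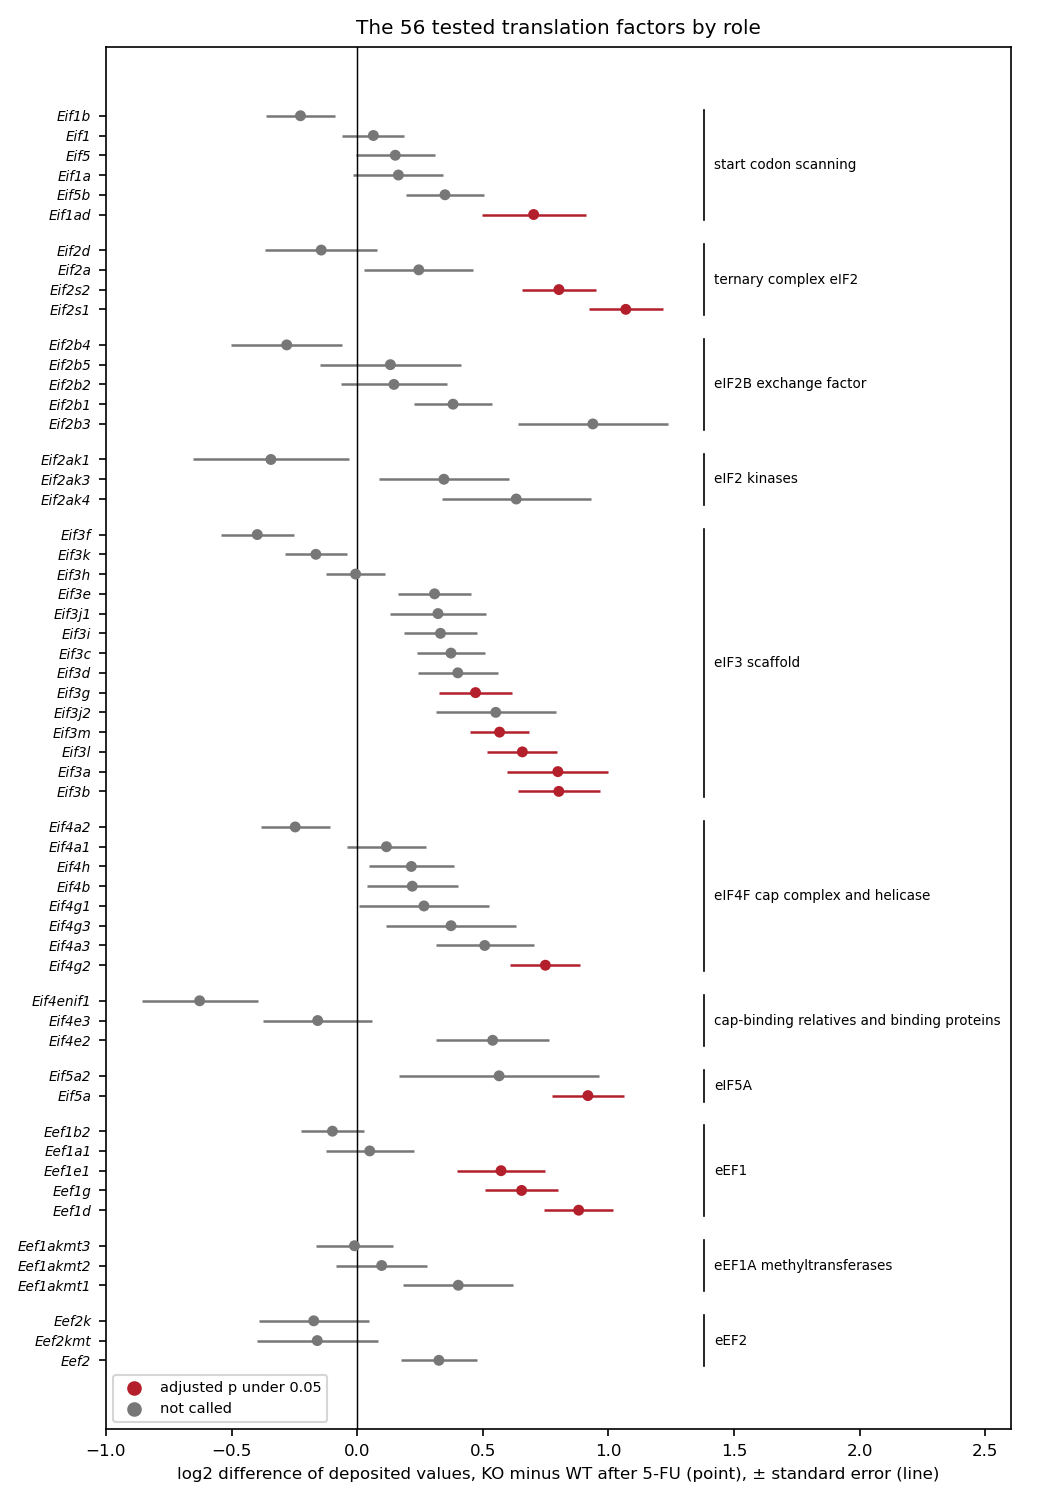
Log2 difference of the deposited values, KO minus WT after 5-FU, for the 56 tested translation factors grouped by role. Points are limma estimates, lines are ± 1 standard error and red marks an adjusted p under 0.05. The 13 red points all lie to the right of 0, while Eif3f and Eif4enif1 lie furthest to the left.

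Other gene lists moved in the same comparison. Of 12 proliferation genes, 6 were higher in KO and 0 lower, and their summed normalized counts ran from 41923 to 55495 in WT and from 74123 to 81405 in KO after 5-FU. Of 7 megakaryocyte genes 6 were lower in KO, with sums of 29528 to 51151 in WT and 4095 to 6872 in KO, and 4 of 7 erythroid genes were lower, with sums of 8785 to 11944 in WT and 5046 to 5118 in KO. Of 6 neutrophil and myeloid genes 3 were lower (3940 to 5696 in WT, 2252 to 2397 in KO), and of 2 B-cell genes 1 was lower (1142 to 1944 in WT, 540.2 to 787.0 in KO). The part of these shifts in the translation-factor differences was not tested. In such bulk libraries, fewer cells of a type and less RNA per cell cannot be told apart.

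Both eIF2 subunit genes among the members were higher in KO after 5-FU. The gene of the third subunit, gamma, is not autosomal and is therefore no member. Eif2s1 (ENSMUSG00000021116, chromosome 12, 78861819 to 78887010, plus strand, GRCm38) encodes the alpha subunit, the one the eIF2 kinases phosphorylate. Its normalized counts were 10379.9, 11460.0 and 12981 in KO and 4712, 6378, 5072 and 5189 in WT after 5-FU. Untreated WT libraries read 4182, 5607 and 6251, and untreated KO libraries 5636, 6429.7 and 5549. Every KO library after 5-FU thus lay above all 10 others, which overlapped one another. The group mean was 2.17-fold that of WT after 5-FU, 11607 ± 1307 (SD, n = 3) against 5338 ± 723 (SD, n = 4), with a log2 difference of 1.07 ± 0.147 (SE, limma, adjusted p = 0.000213).

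Eif2s2 (ENSMUSG00000074656, chromosome 2, 154871410 to 154892935, minus strand) encodes the beta subunit, which contacts eIF5 and eIF2B. It read 3056, 3885 and 3785 in KO and 1776, 1766, 1992 and 1994 in WT after 5-FU. In untreated cells it read 1264, 1257 and 1280.2 in WT and 1993, 2819.9 and 2084 in KO. KO after 5-FU was the highest group and untreated WT the lowest, each apart from all others, while WT after 5-FU and untreated KO met near their ends. The KO mean after 5-FU was 1.90-fold the WT mean, with a log2 difference of 0.80 ± 0.148 (SE, limma, adjusted p = 0.00207). Eif2a and Eif2d, which can place an initiator tRNA without eIF2, did not pass: their log2 differences were 0.25 and -0.14.

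The 5 eIF2B subunit genes and the 3 eIF2 kinase genes had no call in any comparison. Eif2b1, the eIF2B gene with the highest level per kb of exon, read 3214, 2983 and 3873 in KO and 2208, 2716, 2484 and 2515 in WT after 5-FU. Those groups were apart, but the log2 difference of 0.38 ± 0.156 (SE) did not pass (limma, adjusted p = 0.134). Eif2b3 had a larger difference, 0.94, that just missed the threshold (limma, adjusted p = 0.0543). It read 1600.4, 369, 488 and 520.1 in WT after 5-FU, with A2 inside the KO range of 1192 to 2097, and it was called without WT A2. Among the kinases Eif2ak1, which responds to haem, had the highest level per kb and read 560.1, 2092, 1038 and 1892 in WT and 1009, 841 and 930.1 in KO after 5-FU. The WT values spanned the KO values, with A3 and D4 high together. Eif2ak4, the sensor of uncharged tRNA, read 199, 81.1, 476 and 124 in WT and 517, 437 and 397 in KO. Only WT A4 reached the KO range, and the log2 difference of 0.63 did not pass (limma, adjusted p = 0.196).

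eIF3, the largest initiation factor, contributed 5 of its 14 genes to the 13 calls, and 11 of 14 had a positive difference with a median of 0.39. Eif3a (ENSMUSG00000024991, chromosome 19, 60761117 to 60790658, minus strand) and Eif3b (ENSMUSG00000056076, chromosome 5, 140419328 to 140443360, plus strand) encode its nucleating subunits. Eif3b read 4856, 4719 and 4829.9 in KO and 3251, 2861, 1953 and 2458 in WT after 5-FU. It read 2692, 2021 and 2917 in untreated WT and 3280.4, 2609.8 and 3052 in untreated KO. The 3 KO libraries after 5-FU lay close together and above every other library. The difference was 1.83-fold, or 0.80 ± 0.164 on the log2 scale (SE, limma, adjusted p = 0.00444).

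Eif3a was as tight in KO after 5-FU, at 7326, 7209 and 7438, but spread in WT, at 6301, 2991, 4812 and 2903. WT A2 and A4 were high and A3 and D4 low, and untreated cells read 4752, 3865 and 4034 in WT and 3010.5, 3641 and 3389 in KO. Its log2 difference was 0.80 ± 0.201 (SE, limma, adjusted p = 0.0170). That call was lost without WT A3 or D4 or KO A5, A6 or A8, at adjusted p of 0.0575 to 0.0619 in limma, and at 0.0562 with A3 and D4 averaged.

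Eif3m, Eif3l and Eif3g completed the called subunits. Eif3m (ENSMUSG00000027170, chromosome 2, 104999656 to 105017080, minus strand), part of the core with the PCI and MPN domains, read 12808, 12626 and 13764 in KO and 8734, 8360.2, 9816 and 7945 in WT after 5-FU. It read 8559.8, 9960.2 and 10856 in untreated WT and 8976, 10272 and 9415 in untreated KO, so KO after 5-FU again stood above all others. The log2 difference was 0.57 ± 0.118 (SE, limma, adjusted p = 0.00501). Eif3l (ENSMUSG00000033047, chromosome 15, 79075179 to 79094405, plus strand), another subunit of the same core, read 5884, 6203 and 7499 in KO and 3749, 4455, 3869 and 3868 in WT after 5-FU. In untreated cells it read 4795, 5326 and 5474 in WT and 6449, 5179 and 7447 in KO. Here the WT libraries after 5-FU were the low ones, and KO after 5-FU overlapped untreated KO. The difference of 0.66 ± 0.139 (SE) passed at adjusted p = 0.00561 in limma. Eif3g, the RNA-binding subunit (chromosome 9, 20894349 to 20898623, minus strand), had the smallest called difference, 0.47 ± 0.147 (SE, limma, adjusted p = 0.0491), and it did not pass when any 1 of 10 libraries was left out: untreated WT D2 or D3, untreated KO D4 or D6, WT A3, A4 or D4, or KO A5, A6 or A8 (0.0521 to 0.234).

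The remaining eIF3 genes did not move as a block. Eif3h, the subunit gene with the highest level per kb of exon, read 8085, 7818 and 9126 in KO and 8633, 8711, 7733 and 8412 in WT after 5-FU. Its values overlapped, and the 95% interval of its log2 difference was -0.25 to 0.24. Eif3f, which forms a pair with Eif3h in the core, had the lowest difference of the complex, -0.40 ± 0.145 (SE, limma, adjusted p = 0.0927), with 5351, 5426 and 6635 in KO below 6903, 8566, 7410.1 and 8166 in WT. Eif3k was also negative at -0.16, and Eif3c, Eif3d, Eif3e, Eif3i, Eif3j1 and Eif3j2 were positive at 0.31 to 0.55 without passing. Eif3j1 and Eif3j2 share 99.74% of their aligned coding bases, so how reads were split between them is uncertain.

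**Figure D2:**
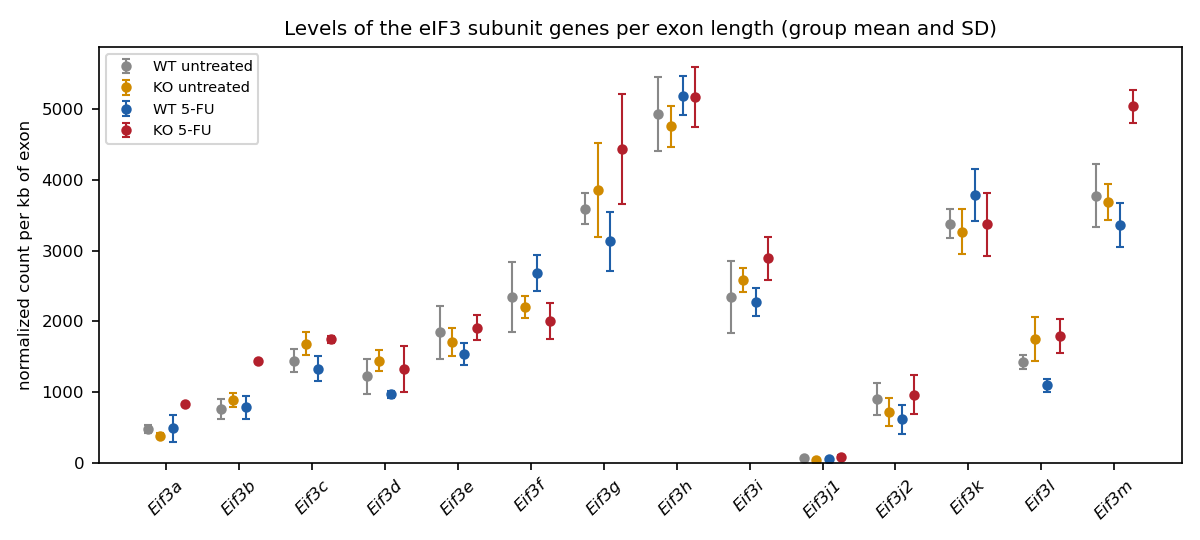
Normalized count per kb of exon (linear axis from 0) for the 14 eIF3 subunit genes in the 4 groups. Points are group means and bars are SD over 3 or 4 libraries. KO after 5-FU stands apart at Eif3a, Eif3b and Eif3m, while the 4 groups overlap at Eif3h.

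In the eIF4F group, which unwinds the mRNA and bridges its cap to eIF3, 1 of 8 genes was called. Eif4g2 (ENSMUSG00000005610, chromosome 7, 111067750 to 111083030, minus strand) encodes an eIF4G relative that lacks the part which holds the cap-binding protein. It read 12249, 10767 and 8767 in KO and 6708, 6425, 5858 and 5439.8 in WT after 5-FU. Untreated WT read 6647, 7337 and 5538, and untreated KO 6097, 6719 and 7192. The KO libraries after 5-FU were all the highest, by 1.73-fold over WT, with a log2 difference of 0.75 ± 0.139 (SE, limma, adjusted p = 0.00213). The cap-complex scaffolds proper, Eif4g1 and Eif4g3, had differences of 0.27 and 0.37 that did not pass, although each KO library after 5-FU was above all others for Eif4g1.

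Eif4a3, the helicase of the exon junction complex and the gene of this group with the highest level per kb, read 7565, 8398 and 10357 in KO and 5692, 7332, 4723 and 6573 in WT after 5-FU. The groups were apart, yet the log2 difference of 0.51 ± 0.195 (SE) did not pass (limma, adjusted p = 0.110). The helicases of initiation, Eif4a1 and Eif4a2, which share 78% of aligned coding bases, did not pass either, at 0.12 and -0.25. Of the normalized counts of this pair, Eif4a2 held 49.5% ± 2.02 (SD, n = 3) in untreated WT, 37.2% ± 4.75 (SD, n = 3) in untreated KO, 39.3% ± 6.71 (SD, n = 4) in WT after 5-FU and 33.0% ± 5.84 (SD, n = 3) in KO after 5-FU. The 3 untreated WT libraries thus lay above all 10 others in this share, a difference that was not tested. The cap-binding relatives and partners had no call. Eif4e2 read 2462, 2543 and 3409 in KO and 2675, 1508, 1645 and 1541 in WT after 5-FU, overlapping through WT A2. Eif4enif1 had the lowest difference of all 56 members, -0.63 ± 0.231 (SE, limma, adjusted p = 0.0952).

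The start-codon scanning group had 1 call among 6 genes, Eif1ad (ENSMUSG00000024841, chromosome 19, 5366741 to 5371526, plus strand), grouped here as a relative of eIF1A. Whether Eif1ad acts in scanning was not tested, and the 5 other genes of the group were not called. The calls are for KO against WT after 5-FU. Eif1ad read 3143, 3678 and 4366 in KO and 2457, 2243, 1636 and 2260.3 in WT after 5-FU. Untreated cells read 1581, 3156 and 3008 in WT and 2179, 1706 and 2564 in KO, so the KO values after 5-FU overlapped those of untreated WT. The log2 difference was 0.70 ± 0.207 (SE, limma, adjusted p = 0.0389), and the call was lost without WT A3, A4 or D4 or KO A5, A6 or A8 (adjusted p 0.0588 to 0.162). In addition, 15.33% of its exon bases overlap Banf1 on the other strand, which reads without strand marking cannot separate. Eif1, which guards start-codon choice and had the highest level per kb of this group, read 8332, 8549 and 8706 in KO and 7732, 8312, 8778 and 7775 in WT after 5-FU, with overlapping values and a 95% interval of -0.20 to 0.33. Its near copy Eif1b had a difference of -0.23.

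Eif5a (ENSMUSG00000078812, chromosome 11, 69916714 to 69921958, minus strand) encodes the hypusine-bearing factor eIF5A. Its normalized counts were 21211, 22894 and 29469.8 in KO and 13818, 13410.2, 10607 and 13072 in WT after 5-FU. Untreated WT libraries read 10197, 15038 and 12402, and untreated KO libraries 16640.5, 16730.0 and 15990.0. KO after 5-FU was above every other library and untreated KO was above untreated WT. After 5-FU the mean was 1.93-fold higher in KO, a log2 difference of 0.92 ± 0.145 (SE, limma, adjusted p = 0.000603). Its relative Eif5a2 was far lower and irregular, from 2.90 in WT A3 after 5-FU to 578 in untreated WT D1, and was not called. Dhps, the enzyme that makes the hypusine precursor on eIF5A, was also higher in KO after 5-FU, with 911, 927 and 1182 in KO and 390.0, 440.4, 423 and 519 in WT and a log2 difference of 0.79 ± 0.186 (SE, limma, adjusted p = 0.0114).

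Of the 5 eEF1 genes 3 were higher in KO after 5-FU, and the other two were not called. Eef1d (ENSMUSG00000055762, chromosome 15, 75894205 to 75909556, minus strand) encodes a nucleotide exchange subunit of eEF1B. It read 4458, 4709 and 5614 in KO and 2952, 2349.7, 2260.5 and 2439.6 in WT after 5-FU. It read 3050.2, 3455 and 3382 in untreated WT and 3929.8, 3957 and 3294 in untreated KO. WT after 5-FU was the lowest group and KO after 5-FU the highest, both apart from the untreated libraries. The difference between them was 1.97-fold and 0.88 ± 0.137 on the log2 scale (SE, limma, adjusted p = 0.000553).

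Eef1g (ENSMUSG00000071644, chromosome 19, 8967041 to 8978479, plus strand), the structural subunit of eEF1B, read 30723, 31002 and 38417 in KO and 22688, 22442, 19319 and 19579 in WT after 5-FU. Untreated cells read 19949, 28761 and 27762 in WT and 33288, 25776 and 34378 in KO, and KO after 5-FU overlapped untreated KO alone. The log2 difference was 0.65 ± 0.144 (SE, limma, adjusted p = 0.00757, 0.0522 without KO A8). Eef1e1 (ENSMUSG00000001707, chromosome 13, 38644207 to 38659058, minus strand), a scaffold of the multi-synthetase complex, read 2309.8, 2105 and 2252 in KO and 2002, 1097, 1293 and 1233 in WT after 5-FU. Untreated cells read 1469, 1379 and 1869 in WT and 1483, 1182 and 1459.7 in KO, and WT A2 after 5-FU stood close to the KO values. Its difference of 0.57 ± 0.177 (SE) passed at adjusted p = 0.0469 in limma and was lost when any 1 of 9 libraries was left out (untreated KO D4, D5 or D6, WT A3, A4 or D4, or KO A5, A6 or A8, with adjusted p up to 0.148).

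Eef1a1, the tRNA carrier itself, had by far the highest level of the members, 68376 normalized counts per kb of exon as the mean of the 4 groups, against 10676 for Eef1g, the next. It read 130384, 143692 and 159954 in KO and 129419, 151251, 155128 and 123850.0 in WT after 5-FU. Untreated WT read 123279, 233692 and 194690.0, and untreated KO 232528, 172891 and 234686. The genotypes overlapped in both treatments, with a log2 difference of 0.05 ± 0.175 (SE) after 5-FU and a 95% interval of -0.32 to 0.42. Eef1b2, the other exchange subunit, had a difference of -0.10 with an interval of -0.36 to 0.16. All members together held 2.54% to 2.68% of the reads in KO and 1.99% to 2.29% in WT after 5-FU. The untreated ranges, 2.22% to 2.91% in WT and 2.48% to 2.95% in KO, both hold the KO range after 5-FU. Without Eef1a1, the members held 1.73% to 1.78% of the reads in KO and 1.25% to 1.39% in WT after 5-FU. In the untreated libraries of both genotypes they then held 1.39% to 1.52%. Eef1a1 held 0.735% to 0.962% of the reads after 5-FU and 0.832% to 1.44% in untreated cells.

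The eEF1A methyltransferase genes and the eEF2 group had no call. Eef1akmt1, the highest per kb of the former, read 1247, 1522 and 1493 in KO and 846, 808, 1639.5 and 813 in WT after 5-FU, with WT A4 above all 3 KO libraries. Eef2, which moves the ribosome by a codon, read 14222, 12815 and 10008 in KO and 10481, 9308, 9770.4 and 9197 in WT after 5-FU. These overlapped through KO A8, and the difference of 0.33 ± 0.151 (SE) did not pass (limma, adjusted p = 0.192). Eef2k, the kinase that halts eEF2, and Eef2kmt were at -0.17 and -0.16. Of the 9 members known for a terminal oligopyrimidine tract, which lets growth signals set their translation, 2 (Eef1d and Eef1g) were called, as were 11 of the 47 others.

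**Figure D3:**
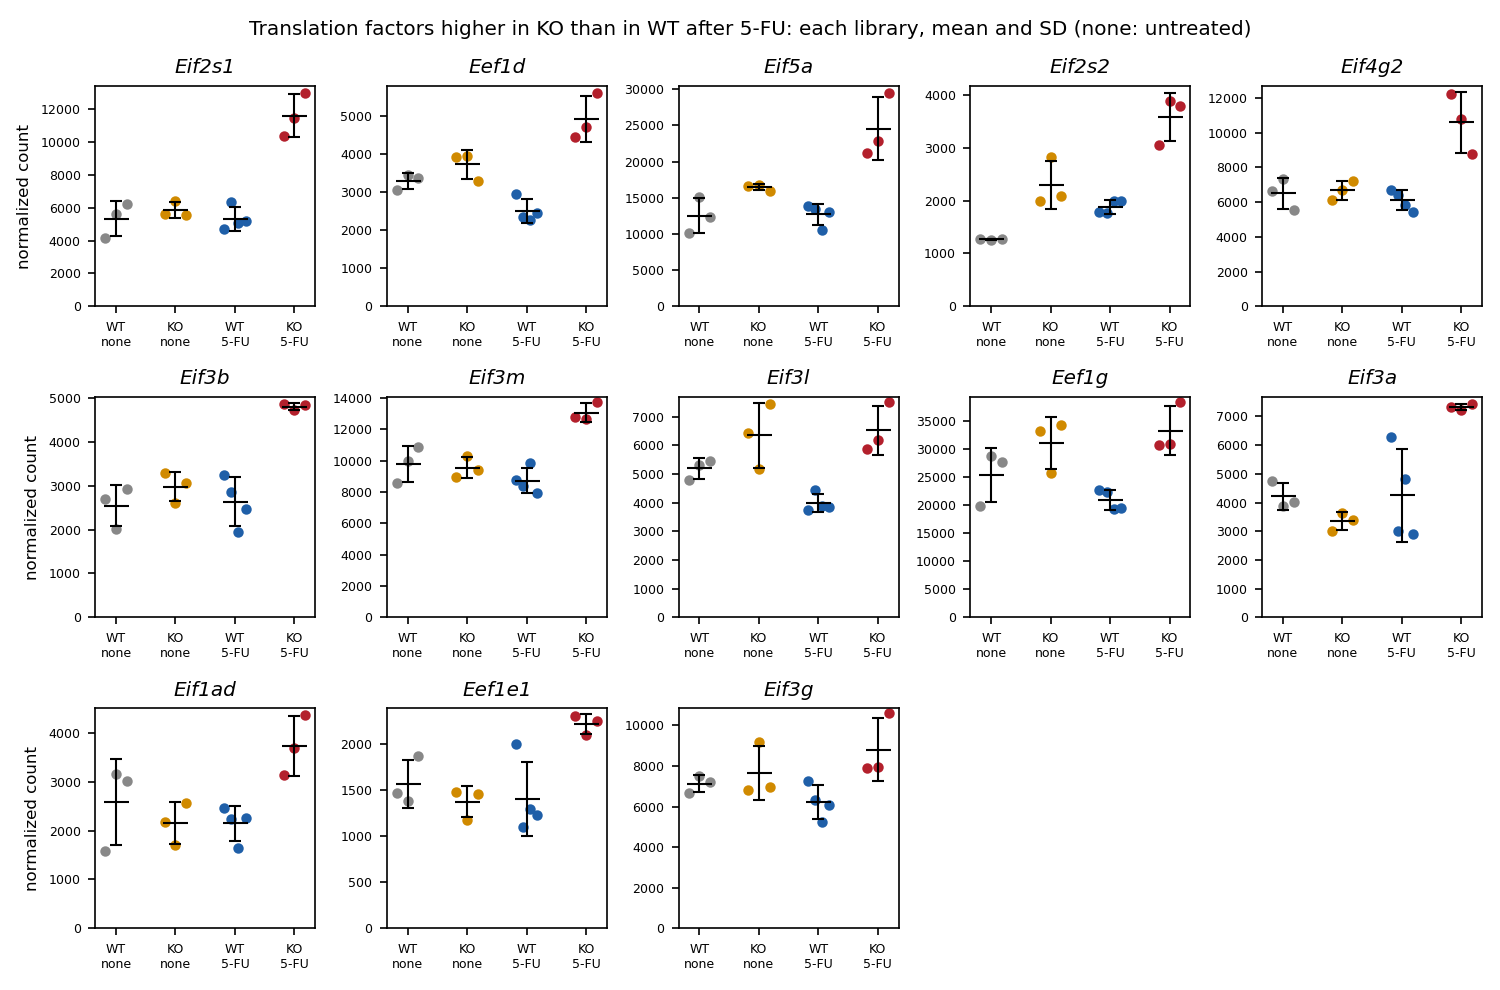
Normalized counts (linear axis from 0) of the 13 members higher in KO than in WT after 5-FU, in each of the 13 libraries. Points are libraries, black marks are group means ± SD, and "none" stands for untreated. For 9 of the 13 genes every KO library after 5-FU lies above all 10 other libraries.

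For 9 of the 13 called members (Eef1d, Eef1e1, Eif2s1, Eif2s2, Eif3a, Eif3b, Eif3m, Eif4g2 and Eif5a) every KO library after 5-FU lay above all 10 other libraries. Among the 56 tested members this held for 11, the other two being Eif4a3 and Eif4g1, and for 4.76% of all tested genes. The reverse, all 3 KO libraries below the other 10, held for 0 of 56 members and 3.78% of all genes. Among the 3 KO libraries after 5-FU, A8 was the highest for 9 of the 13 called members. Without A8, 8 of the 13 passed in limma: Eef1d, Eif2s1, Eif2s2, Eif3b, Eif3l, Eif3m, Eif4g2 and Eif5a.

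Promoter sequence was read for the members because several moved together. RefSeq windows of 300 bases, 250 before to 50 after a start, were matched by symbol (GRCm38.p6) for 44 of the 57 members and for 10 of the 13 called ones. The ETS-like hexamer GGAAGT, searched on both strands, was in a window of 23 of the 44 members (52.27%). It was in 6 of the 10 called members and in 17 of the 34 other members (50%). The shares were 33% of tested genes with a window and 23.77% of all 32851 windows. The E-box CACGTG, which reads the same on both strands, was in 11 of 44 members (25%), against 11.85% of tested genes and 7.15% of all windows. It was in 2 of 10 called members and in 9 of the 34 other members (26.47%). GGGCGG was in 75% of members and 68.15% of tested genes, and CCAAT in 34.09% and 43.19%. A gene with several windows has more chances to match. The 30-base stretches below are on the gene's strand and show matches before a start in called members, with the motif or its reverse complement in capitals.
Eef1e1, chr13:38659039-38659068, minus strand: ctgtggggccggACTTCCtgctcaatcaag
Eif1ad, chr19:5366637-5366666, plus strand: gacggttcctcgACTTCCgcttccgggtcg
Eif3l, chr15:79075175-79075204, plus strand: gggctgggcgggACTTCCggtccggccaag
Eif3m, chr2:105017115-105017144, minus strand: ggcccgcggggaGGAAGTagtactgtgggc
Eif5a, chr11:69920666-69920695, minus strand: agccgtagcaccGGAAGTgttccccattgg
Eif5a, chr11:69921443-69921472, minus strand: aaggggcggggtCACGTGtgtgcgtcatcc
Eif5a, chr11:69920791-69920820, minus strand: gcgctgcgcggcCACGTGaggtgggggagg

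The hexamers lie 28, 164, 36, 105 and 53 bases before a start in the first 5 stretches, counted from the motif's first base, and 74 and 178 bases before different Eif5a starts in the last pair. A match is a description of letters, and no binding was measured here.

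In untreated cells 0 of the 56 members differed between KO and WT by limma with Benjamini-Hochberg adjustment, beside 0.0311% of all tested genes (0.0234% higher and 0.00778% lower). At an unadjusted p under 0.05 there were 4 of 56 members and 1291 of 12846 genes. The median log2 difference of the members was -0.02, against 0.00 over all genes, and 6 of 56 had groups that did not overlap, against 11.5% of genes. KO was the higher group of the 2, without overlap, in 4 of the 56 members, beside 5.88% of all genes. The member with the smallest p was Eif2s2, whose 3 KO libraries (1993, 2819.9 and 2084) lay above the 3 WT libraries (1264, 1257 and 1280.2). Its log2 difference was 0.69 ± 0.159 (SE, limma, adjusted p = 0.149). Eif5a was next at 0.40 ± 0.155 (SE, limma, adjusted p = 0.383), and Eif4a1 followed at 0.43 ± 0.170 (SE, limma, adjusted p = 0.394). For both, the KO libraries lay above the WT ones.

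**Figure D4:**
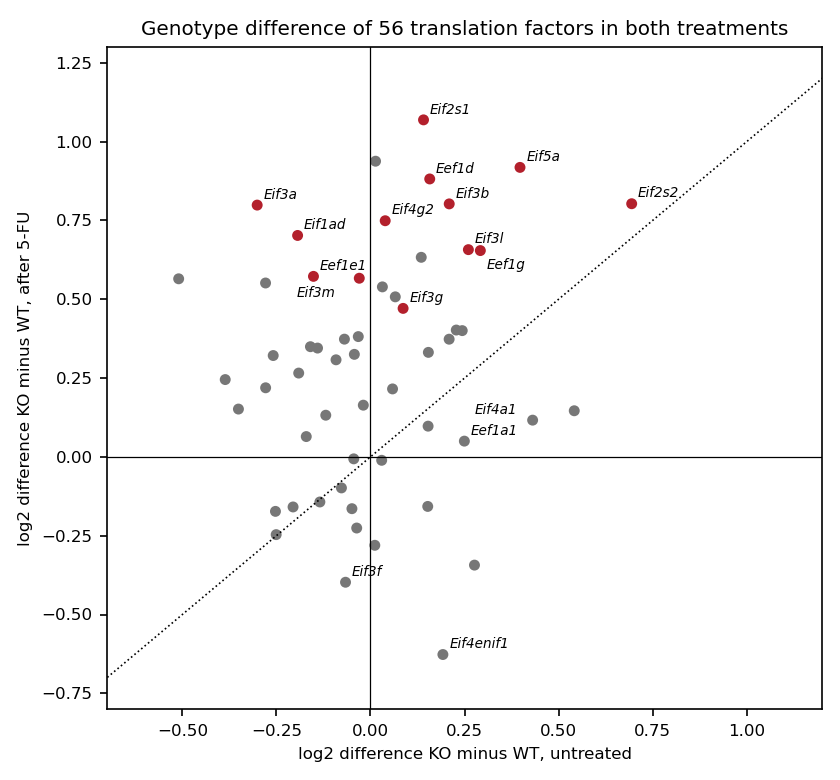
Log2 difference KO minus WT in untreated cells (horizontal) and after 5-FU (vertical) for the 56 tested members. Red points are the 13 called after 5-FU, the dotted line marks equal differences, and the untreated axis holds no called gene. Eif2s1 is near 0 in untreated cells and highest after 5-FU, while Eif2s2 is high on both axes.

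Between 5-FU and untreated WT cells 0 of 56 members were higher and 0 lower in limma after Benjamini-Hochberg adjustment, although 6.68% of all tested genes were called, 3.72% higher and 2.96% lower. At an unadjusted p under 0.05 there were 6 of 56 members and 2873 of 12846 genes, and the median was -0.08, against -0.00 over all genes. Treated and untreated values did not overlap for 8 of 56 members, 3 of them higher after 5-FU, beside 16.7% of all genes in either direction and 8.8% higher. Limma-voom on the recovered reads called 1 member lower, Eif5. The members with the smallest p were Eif2s2 at 0.46 ± 0.148 (SE, limma, adjusted p = 0.0739), Eif5 at -0.47 ± 0.157 (adjusted p = 0.0829) and Eif4b at -0.54 ± 0.180 (adjusted p = 0.0853). Eif5, which triggers GTP hydrolysis at the start codon, read 2614, 3161, 3269 and 2968 after 5-FU and 5543, 3294 and 4323 before. It passed without untreated WT D2. Eif4b, a helper of the eIF4A helicase, read 4307, 3769, 2980.4 and 3432 after 5-FU and 4995, 5518 and 5666 before. For both genes the treated libraries lay below the untreated ones. In the WT response 6 of 7 megakaryocyte, 3 of 7 erythroid and 3 of 12 proliferation genes were higher, and megakaryocyte sums were 3424 to 5126 before and 29528 to 51151 after. Of 6 neutrophil and myeloid genes 1 was also higher. The part of these shifts in the WT response of the members was not tested. All untreated WT libraries have the earlier acquisition date, and among the treated WT libraries only D4 has it. Treatment and date can therefore be told apart in WT only through D4, which was sequenced on the second flowcell alone.

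In KO cells 6 of 56 members were higher after 5-FU and 0 lower (limma, Benjamini-Hochberg), while 2.78% of all tested genes were higher, 3.14% were lower and 5.92% were called in either direction. Values did not overlap for 20 of 56 members, 18 of them higher after 5-FU, beside 28.8% of all genes in either direction and 14.2% higher. The 6 called members were Eif2s1, Eif3a, Eif4g2, Eif2s2, Eif3b and Eif5a, all 6 among the 13 that were higher in KO than in WT after 5-FU. Both comparisons use the same 3 KO libraries. In the KO response 3 of 12 proliferation genes were higher, with sums of 55734 to 67742 in untreated KO and 74123 to 81405 after 5-FU, and 2 of 9 HSC markers were lower, with sums of 12120.3 to 12918 and 5975 to 6459. Of 6 neutrophil and myeloid genes 1 was lower (4410 to 4957 and 2252 to 2397), and 1 of 7 erythroid genes was higher. The part of these shifts in the KO response of the members was not tested. The fold of the means ran from 1.49 for Eif5a to 2.19 for Eif3a. The log2 difference of Eif2s1 was 0.94 ± 0.158 (SE, limma, adjusted p = 0.00235) and that of Eif3a 1.05 ± 0.215 (adjusted p = 0.00772). In WT the same genes had 0.01 and -0.05. Eif4g2 had 0.63 ± 0.149 in KO (adjusted p = 0.0184), lost without untreated KO D4 or KO A5 or A6 (0.0803 to 0.102).

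Eif2s2, Eif3b and Eif5a passed at adjusted p of 0.0434, 0.0435 and 0.0447 in limma. Each was lost without WT A3 or D4 after 5-FU, without any KO library after 5-FU, or without untreated KO D4 or D6 (0.0560 to 0.183), which left 2 or 3 of the 6 calls; Eif3b and Eif5a were lost without untreated KO D5 too. All untreated libraries have the earlier acquisition date and all KO libraries after 5-FU the later one. With date as a term, estimated from WT D4 alone and so carrying that library's flowcell too, 0 of 6 calls passed and the log2 difference of Eif2s1 was 0.90 (adjusted p = 0.282). Treatment and date therefore cannot be told apart within KO.

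The genotype by treatment interaction asks whether the KO minus WT difference after 5-FU exceeds that in untreated cells. It was called for 1 of 56 members, Eif2s1, beside 2.84% of all tested genes in either direction, 1.04% higher and 1.8% lower. Its size was 0.93 ± 0.216 on the log2 scale (SE, limma, adjusted p = 0.0288), as KO and WT differed by 0.14 in untreated cells and by 1.07 after 5-FU. The call was lost without untreated WT D2 or D3, untreated KO D4 or D6, WT D4 or KO A6 or A8 (0.0520 to 0.0803), in limma-voom on the recovered reads (0.0512), and with acquisition date as a term (0.0588). The next members were Eif3a at 1.1 (limma, adjusted p = 0.0542), Eef1d at 0.72 (0.0616), Eif4g2 at 0.71 (0.0707) and Eif3m at 0.60 (0.0735). The median of the 56 was 0.37, against -0.01 over all genes, and 42 of 56 were positive. In the interaction 6 of 7 megakaryocyte, 2 of 7 erythroid, 1 of 9 HSC and 1 of 6 neutrophil and myeloid markers were lower, and their part in it was not tested. For the other 12 members called after 5-FU, a difference in genotype effect between the treatments was not shown.

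**Figure D5:**
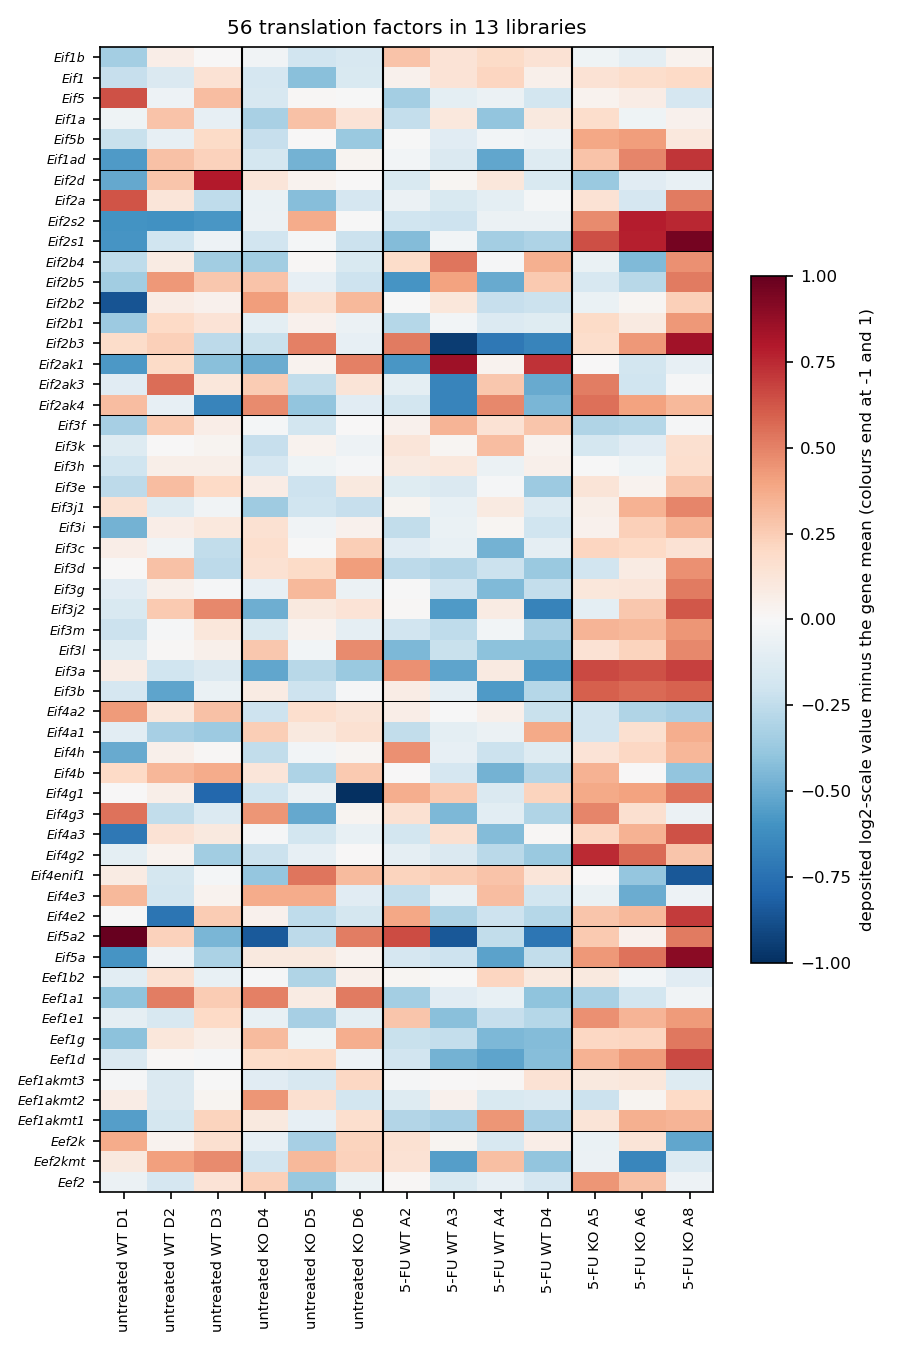
Deposited log2-scale value minus the gene's mean over 13 libraries (colour, ending at -1 and 1) for the 56 tested members in rows, grouped by role, and the libraries in columns, grouped by treatment and genotype. The 3 right-hand columns, KO after 5-FU, are red at the 13 called members, and KO A8 is the reddest for most of them.

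Other genes of the translation machinery were read from a list of 36, all of them tested. After 5-FU 4 were higher and 3 lower in KO, beside 5.36% and 5.5% of all tested genes. Among 8 genes of termination, recycling and rescue 3 were higher. Abce1, the ATPase that splits ribosomes after release, read 4860.1, 4733 and 4639 in KO and 2498, 2370.0, 2027 and 2141 in WT, a difference of 0.96 ± 0.145 (SE, limma, adjusted p = 0.000439). Etf1 and Gspt1, the release factors eRF1 and eRF3a, differed by 0.77 and 1.11 (limma, adjusted p = 0.00143 and 0.0110). All 3 had KO values above all WT values, as did 13.2% of all tested genes.

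The 3 lower genes were Pdcd4, Ppp1r15a and Paip2. Pdcd4, an inhibitor of the eIF4A helicase, read 1932, 2225 and 2243 in KO and 7604, 10209, 12167 and 12834 in WT after 5-FU, a log2 difference of -2.12 ± 0.224 (SE, limma, adjusted p = 2.89e-05). Untreated cells read 4587, 2704 and 2897 in WT and 2548, 3859 and 1794 in KO, so the WT libraries after 5-FU stood far above the rest, and the WT response was called at 1.56 ± 0.224 (SE, limma, adjusted p = 0.000476). Ppp1r15a, the stress-induced subunit of the phosphatase that reverses eIF2 phosphorylation, read 224, 129.7 and 194 in KO and 799.6, 885, 946 and 746 in WT, a difference of -1.27 ± 0.292 (SE, limma, adjusted p = 0.00999). Its untreated libraries read 1600, 779 and 1039 in WT and 1035, 184.8 and 895 in KO. Untreated KO D5 thus lay within the range of KO after 5-FU. Paip2, an inhibitor of the poly(A)-binding protein, differed by -0.51 ± 0.145 (SE, limma, adjusted p = 0.0332) with overlapping values. The mitochondrial translation factors had 0 of 6 called in this comparison, beside 10.9% of all tested genes in either direction.

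Levels differed widely among the members. Per kb of exon the order ran from Eef1a1, Eef1g, Eif5a and Eif3h at the top to Eif5a2, Eif2ak3, Eef1akmt3 and Eif4ebp3 at the bottom, where Eif4ebp3 read 22.5 in untreated WT D1 and 2.76 or less in the 12 others and was too low to test. Over all 13 libraries the coefficient of variation was lowest for Eif3h at 7.52% and Eef1b2 at 9.49%, and among the called members it was 40.6% for Eif2s1 and 18.3% for Eif3m. Of the 57 members, 14 share exon bases with another gene of the table, among the called ones Eef1d with Naprt (4.269%), Eif1ad with Banf1 and Eif3m with Ccdc73 (3.166%), so reads there may be assigned to either gene.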

How the data were processed

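Poly(A) RNA of 13 libraries, each of 100 sorted cells, was measured by Smart-seq2. The authors trimmed reads with Trimmomatic, aligned them with Bowtie 1.1.1 to mm10 and used DESeq2, per the submitters' processing notes; the tool for counting, the annotation and the strand setting were not given in the sources used here. The deposited values are on a log2 scale after the authors' normalization, with 7.6484 as the fitted value for a normalized count of 0. The lowest value in each library stood for 1 read on that scale (2 in untreated WT D1) and was taken as 0 reads. With that constant taken off, each library's values gave back whole reads, within 0.1, for 100% of genes. Normalized counts and totals come from those reads, and intervals on differences are limma's, at 95%.

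The 12846 genes reaching a normalized count of 10 in 3 or more libraries were fitted on the deposited values with limma 3.58.1 in R 4.3.3, with 1 mean per group and a trended variance, residual degrees of freedom 9 and prior 7.67. P-values were Benjamini-Hochberg adjusted within each comparison, and under 0.05 was called. Fold changes are ratios of mean normalized counts, and log2 differences are on the deposited scale, which shrinks changes of low genes. Gene models were GENCODE M21. Promoter windows were RefSeq's, GRCm38.p6. Per-library values were given for up to 4 called members per role by p and for the member with the highest level per kb in each role. They were also given for Eif2b3, Eif2ak4, Eif3f, Eif5 and Eif4b, which that rule does not cover. The others are named with their direction or by range. The rule for members reads no expression value, but the gene set and lists were chosen with earlier results of these data known. Alternatives changed the filter, added constant, scaling, model or libraries; those on recovered reads, on A3 with D4 and on acquisition date are among them. A gene of the HSC marker list is not reported here.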

Additional observations from a re-analysis of the deposited data

Results flagged for a closer look

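Of the 56 tested members, 5 had a library in WT after 5-FU that stood far from the other 3 by Dixon's criterion; chance alone flags about 1 group in 20. Eef1akmt1 was high in WT A4, at a normalized count of 1639. Eef1akmt2 was high in WT A3, at 992.3. Eef1akmt3 was high in WT D4, at 53.14. Eif3c was low in WT A4, at 3750. Eif4e2 was high in WT A2, at 2675, and it was called higher in KO without that library. The genotype difference of Eif2s1 differed between the treatments in the main fit, with an interaction of 0.93 on the log2 scale by limma. That call was lost in 9 of 25 alternatives.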

How the results depend on the processing

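Eef1d, Eif2s1, Eif2s2, Eif3b, Eif3l, Eif3m, Eif4g2 and Eif5a kept the KO versus WT call after 5-FU in all 26 alternatives. No result reversed. Members called higher there were 31 with library weights and 8 to 15 when 1 library was left out; members lower were 4 with weights, 1 with quantile normalization (Eif3f) and 0 to 1 when 1 library was left out. In the KO response, members higher were 3 with quantile normalization, 3 with limma-voom, 3 with A3 and D4 averaged, 12 with weights, 0 with date as a term and 2 to 8 when 1 library was left out; members lower were 1 with weights, 1 with only the compared groups fitted and 0 to 1 when 1 library was left out. In the WT response, 1 was higher with weights, and 1 was lower with quantile normalization, with limma-voom and with weights, or 0 to 1 when 1 library was left out. The interaction gave 2 with a filter of 50, 3 with TMM scaling, 7 with weights, 0 with date as a term and 0 to 5 when 1 library was left out. The causes were not tested. Fitting only the compared groups was not run for the interaction, which needs all 4 groups. No paired analysis was possible because the groups compared share fewer than 2 replicate labels. Genes near 1 to 3 reads, such as Eif4ebp3, cannot be compared at this depth.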
